A study of Mus musculus with 12 samples.

Results

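Interleukin-17A, the colony-stimulating factors and their receptors were followed in mouse back-skin scars through 9 genes: Il17a, Il17ra, Il17rc, Csf1, Csf1r, Csf2, Csf2rb, Csf3 and Csf3r. They were taken by symbol from the 35976 genes listed for each library, and each of the 9 was found. The scars, from male mice aged 8 to 12 weeks, formed 4 groups of 3 libraries: the sham and traction groups of Tem1WT/WT mice (WTSH and WTTR) and of Tem1lacZ/lacZ mice (lacZSH and lacZTR). In Tem1lacZ/lacZ mice, a line backcrossed to C57BL/6J, the only exon of Tem1 is replaced by the reporter lacZ in every cell of the body, so that the loss is not limited to fibroblasts. All mice received a 1.5 cm wound and, after 6 days, a plastic device. It was lengthened by 1 mm a day to 8 mm in the traction groups and was left at its length in the sham groups. Part of each scar went into RNA, which puts dermis, epidermis, vessels, blood cells and neighbouring muscle or fat together in 1 library.

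Interleukin-17A is a cytokine of T lymphocytes that acts on fibroblasts and keratinocytes through a receptor made of the chains IL-17RA and IL-17RC, and it is known for raising chemokines that draw neutrophils and for raising granulocyte colony-stimulating factor. The colony-stimulating factors steer the making, survival and activity of myeloid cells. CSF1 acts on monocytes and macrophages through the kinase CSF1R, CSF2 acts on granulocytes and macrophages through a receptor whose signalling chain is CSF2RB, and CSF3 acts on neutrophils and their precursors through CSF3R. In skin the ligands come mostly from fibroblasts, keratinocytes, endothelium and lymphocytes, whereas CSF1R, CSF2RB and CSF3R are carried mostly by the myeloid cells that enter a wound.

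The 12 libraries held between 41536788 and 64644293 counts, and between 21855 and 23692 genes had a count in a library. A gene with 0 counts in a library was read as below 3 counts, which is 0.0435 to 0.0739 CPM (the count relative to the TMM-adjusted library total), a limit that covers counting error only. Cd248, the gene symbol of Tem1, lay between 92.4 and 337 CPM in the 6 Tem1WT/WT libraries and between 0 and 0.248 CPM in the 6 Tem1lacZ/lacZ libraries, as their labels say. Of 8 scar fibroblast markers, none was at 0 in a library. Replicate 1 of WTTR stood apart for these genes: it was the highest of the 12 libraries for 8 of the 9, the exception being Il17rc. In that library 18 neutrophil markers summed to 8519 CPM, whereas the other libraries held 81.8 to 608 CPM. Results that rest on that library are therefore given with and without it. As the libraries are bulk tissue, fewer cells of a type and less RNA per cell cannot be told apart.

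The positions are those of GENCODE vM21 on GRCm38, and all 9 are protein-coding genes counted over their exons. Il17a lies at chr1:20730905-20734496 in 3 exons, Il17ra at chr6:120463247-120487559 and Il17rc at chr6:113471427-113483140. Csf1 lies at chr3:107741048-107760469, Csf2 at chr11:54247271-54249667 and Csf3 at chr11:98701263-98703629. The receptor gene Csf2rb is at chr15:78325752-78353847 and Csf3r at chr4:126024550-126044440. Csf1 and Csf2 are read from the minus strand and the other 7 from the plus strand.

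Promoter sequence was taken from RefSeq for 5 of the 9 genes on GRCm38.p6. The 250 bases before the start are shown for Il17a, the ligand that names the pathway, and for Csf1, a ligand that rose with traction. Capitals in Il17a mark AGGTCA, the half-site of retinoic acid receptor-related orphan receptors, read on the opposite strand and beginning 120 bases before the start, and then the letters TATAAA, 31 bases before it. Capitals in Csf1 mark a 10-base NF-kB sequence, read on the opposite strand, 154 bases before the start. Il17a lies on the plus strand at chr1:20730655-20730904 and Csf1 on the minus strand at chr3:107760470-107760719, both written in the direction of the gene.
Il17a: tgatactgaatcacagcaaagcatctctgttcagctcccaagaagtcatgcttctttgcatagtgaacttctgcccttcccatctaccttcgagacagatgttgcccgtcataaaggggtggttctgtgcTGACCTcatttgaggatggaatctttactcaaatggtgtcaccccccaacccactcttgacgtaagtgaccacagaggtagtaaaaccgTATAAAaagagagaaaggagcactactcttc
Csf1: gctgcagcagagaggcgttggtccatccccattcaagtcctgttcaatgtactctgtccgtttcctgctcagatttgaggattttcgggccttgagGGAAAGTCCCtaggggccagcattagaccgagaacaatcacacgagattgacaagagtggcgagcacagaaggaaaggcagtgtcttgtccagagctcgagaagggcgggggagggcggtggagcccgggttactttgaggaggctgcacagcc

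These letters were searched on both strands, after the sequences had been read, in windows of 250 bases before 32851 gene starts, and are a description only. AGGTCA was in 14% of the windows, TATAAA in 12.4% and the NF-kB sequence in 0.14%. The AP-1 letters TGANTCA, held by 6.75% of windows, occurred once in Il17a, 244 bases before the start. The C/EBP letters TTGCNNAA, held by 9.56%, occurred once in Csf2, and the PU.1 letters GAGGAAG, held by 10.6%, once in Csf3r. None of the motifs was found in the window of Il17rc. The windows of Il17ra, Csf1r, Csf2rb and Csf3 were not searched.

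The question of the first comparison was whether a pulling load on the scar changed these cytokines and receptors when Tem1 was present. In Tem1WT/WT scars 5 of the 8 genes that passed the filter on low counts were higher with traction: Il17ra, Csf1, Csf2rb, Csf3 and Csf3r. Csf3 was at 0 in WTSH and passed the filter through its traction libraries, so that it had to differ, and leaving it aside the count was 4 of 7. Over all genes tested, 9.15% were called in this comparison, 5.61% as higher and 3.54% as lower. At an unadjusted p under 0.05 the same 5 of the 8 stood, where 31.4% of all tested genes did, 16.7% as higher. The remaining 3 tested genes, Il17rc, Csf1r and Csf2, had positive log2 fold changes that did not pass the test, and Il17a was not tested. Libraries of both groups did not overlap for 6 of the 8 genes, the 5 called and Csf1r, all with WTTR higher (5 of 7 leaving Csf3 aside), where 35.7% of all tested genes did not overlap and 17.7% were higher. The median log2 fold change was 1.84 for the 8 genes and −0.01 for all genes tested, and 1.00 and −0.05 without replicate 1 of WTTR. A gene was called where its adjusted p was under 0.05 in edgeR's quasi-likelihood test, with Benjamini-Hochberg adjustment over 18853 genes. Il17ra, Csf1 and Csf3r had been picked by the study from these same libraries, so that their direction is not independent evidence.

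Replicate 1 of WTTR decided the size of these differences more than their sign. Without it, Csf3, Csf3r and Il17ra were called, and over all genes 360 of 19388. Csf1 and Csf2rb were then 0.90 and 1.10 higher on the log2 scale with an adjusted p from edgeR of 0.0894 and 0.0918. The calls also leaned on other libraries. Without replicate 1 or replicate 2 of WTSH, 0 members were called, as were 0 of all genes. In each case 5 of the 8 had an unadjusted p under 0.05 in edgeR (4 of 7 leaving Csf3 aside). Of all genes, 4229 of 19308 and 4847 of 19411 did. Without replicate 3 of WTSH, or without replicate 3 of lacZSH, only Csf3r was called among the 8, with 820 of 19436 and 169 of 19366 genes called in all. Without replicate 1 or 2 of lacZSH, or replicate 3 of lacZTR, Csf3, Csf3r and Il17ra were called, with 1120, 1028 and 965 genes called in all. Without replicate 3 of WTTR Csf1 was lost (704 genes called in all), and without replicate 2 of lacZTR Csf2rb was lost (1055 genes). All 8 fold changes stayed positive in each of these fits. With all 12 libraries in other tools, limma-voom called Il17ra, Csf1 and Csf3r and 1429 of all 18853 genes, and DESeq2's Wald test called these 3 and Csf2rb, gave no p for Csf3 and called 4047 of all genes, where edgeR called 1725. With only the 6 libraries compared, 0 of the 8 were called and 6 had an unadjusted p under 0.05 in edgeR, where 4876 of 17762 genes did.

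**Figure D1:**
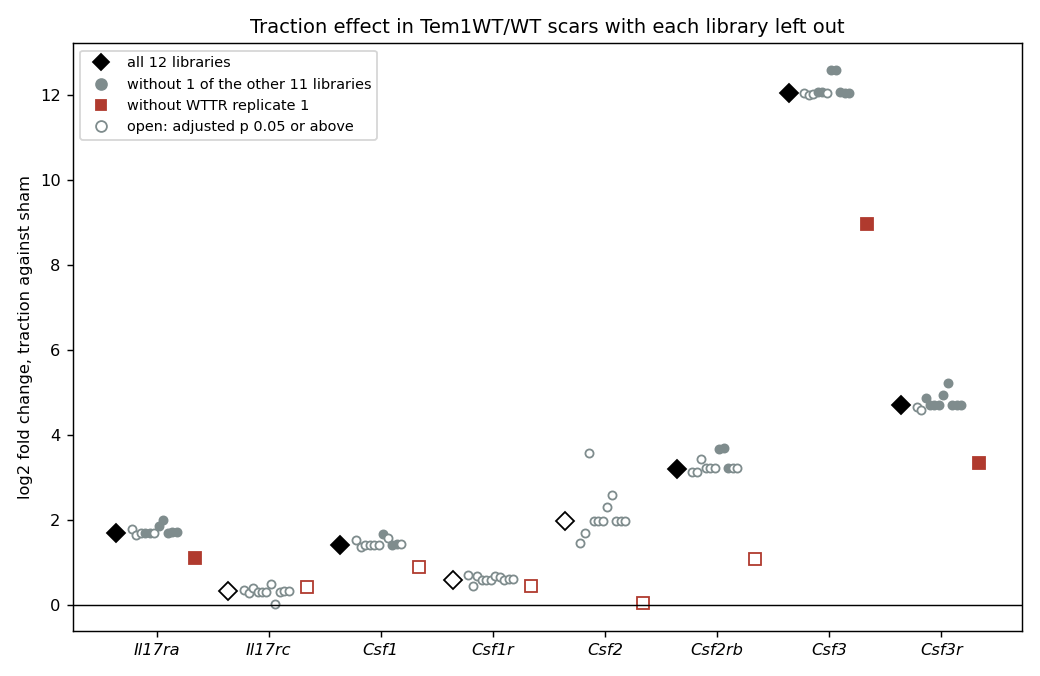
Each column is a gene, and the vertical axis is its edgeR log2 fold change for traction against sham in Tem1WT/WT scars, with all 12 libraries (diamonds), without each of 11 libraries in turn (grey circles) and without replicate 1 of WTTR (red squares), filled where the adjusted p was under 0.05. Without replicate 1 of WTTR, Csf3r went from 4.70 to 3.34 and Csf2rb from 3.21 to 1.10, whereas Il17rc went from 0.34 to 0.44.

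Among the ligands, Il17a was above 1 CPM in 1 library. It had 676 counts, 16.1 CPM, in replicate 1 of WTTR, 0 counts in replicate 2 and 2 counts in replicate 3. In WTSH it had 0, 20 and 0 counts, in lacZSH 5, 1 and 0 counts, and in lacZTR 0, 9 and 2 counts. The highest library was 55.4 times the next one, replicate 2 of WTSH at 0.290 CPM, and the groups overlapped in every comparison. Il17f, the closest relative of Il17a and a partner in the same dimer, had 1242 counts, 29.6 CPM, in that same library and at most 0.333 CPM in the other 11.

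Csf3, granulocyte colony-stimulating factor, was below detection in unloaded Tem1WT/WT scars and present in all 3 with traction. Its level was 0 CPM in each WTSH library and 29.7, 1.28 and 1.23 CPM in WTTR, or 1248, 58 and 60 counts. It was 0, 0.0949 and 0.0404 CPM in lacZSH and 0.0986, 0.820 and 0.339 CPM in lacZTR. All 3 WTTR libraries stood above the other 9, and replicate 1 was 23.2 times the second highest. Measured against the floor of 3 counts in each sham library, the mean of WTTR was at least 204-fold higher than that of WTSH, and at least 23.9-fold higher without replicate 1. In edgeR its adjusted p was 0.0311, and 0.0408 without replicate 1, against a group at 0. Its fitted log2 fold change of 12.05 has a group at 0 below it and is no measure of size.

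Csf1, macrophage colony-stimulating factor, had the highest level per kilobase of exon of the 4 ligands in every library. Its level was 62.2, 48.05 and 52.6 CPM in WTSH, 231, 91.6 and 114 CPM in WTTR, 48.2, 30.3 and 43.6 CPM in lacZSH and 37.2, 72.3 and 69.5 CPM in lacZTR. The lowest WTTR library was above the highest of all other groups. With traction in Tem1WT/WT mice Csf1 was 2.68 times as high, a log2 fold change of 1.42 with a 95% interval from 0.64 to 2.21 (edgeR adjusted p = 0.0386).

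Csf2, granulocyte-macrophage colony-stimulating factor, was low, at 0 to 15 counts in WTSH, 0 to 44 in WTTR, 4 to 8 in lacZSH and 0 to 4 in lacZTR. Its 44 counts in replicate 1 of WTTR were 1.05 CPM and the next library held 0.246 CPM. The log2 fold change for traction in Tem1WT/WT was 1.98 with an interval from −0.88 to 4.84 (edgeR adjusted p = 0.319), and 0.05 without that replicate. Csf2 overlaps the antisense gene Gm12223 on chromosome 11, and with the strand setting not given in the sources used here their reads may not be separate.

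**Figure D2:**
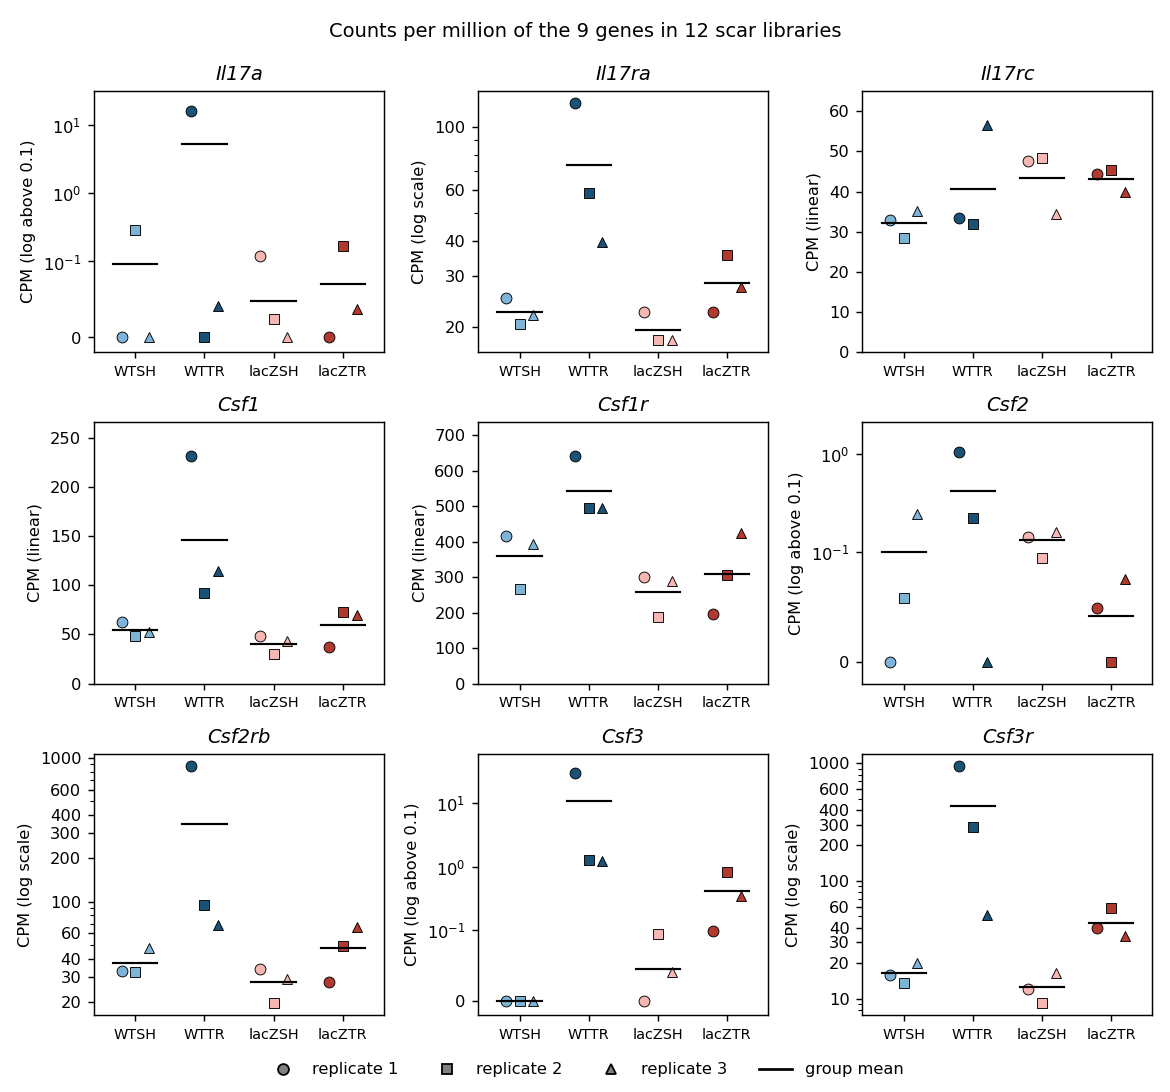
Each panel shows 1 of the 9 genes, with its TMM-normalized CPM on the vertical axis (linear, log, or log above 0.1 as labelled) for the 12 libraries by group, the marker shape giving the replicate and the bar the group mean. Replicate 1 of WTTR is the top point in every panel but that of Il17rc.

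Among the receptors, Csf3r had the largest difference of those with counts in all groups. It was 15.8, 13.6 and 20.1 CPM in WTSH, 954, 285 and 51.6 CPM in WTTR, 12.1, 9.14 and 16.6 CPM in lacZSH and 39.7, 58.3 and 33.9 CPM in lacZTR. Every traction library of both genotypes was above every sham library. The log2 fold change in Tem1WT/WT was 4.70 (SE 0.83, edgeR adjusted p = 0.0252), or a 26.1-fold ratio of means, and 10.2-fold without replicate 1.

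Csf2rb, the shared signalling chain for CSF2, interleukin-3 and interleukin-5, was 32.9, 32.1 and 47.8 CPM in WTSH and 884, 94.2 and 68.6 CPM in WTTR. It was 34.1, 19.6 and 28.8 CPM in lacZSH and 27.7, 48.8 and 66.5 CPM in lacZTR. The ratio of means for traction in Tem1WT/WT was 9.27 with all libraries and 2.16 without replicate 1, and the log2 fold change was 3.21 (SE 0.84, edgeR adjusted p = 0.0428). The neighbouring gene Csf2rb2 is a near copy of Csf2rb on chromosome 15, so that reads may have been split between them. Their counts stood in a ratio of 1.40 to 1.74 in 11 libraries and of 4.12 in replicate 1 of WTTR. Csf2rb2 itself had a log2 fold change of 2.07 (edgeR adjusted p = 0.0480, and 0.135 without replicate 1).

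Il17ra, the chain common to several receptors of the family, was 25.2, 20.4 and 21.9 CPM in WTSH and 122, 58.8 and 39.7 CPM in WTTR. It was 22.4, 18.0 and 17.9 CPM in lacZSH and 22.6, 35.6 and 27.4 CPM in lacZTR. All 3 WTTR libraries were above the other 9. Its log2 fold change for traction in Tem1WT/WT was 1.71 with an interval from 0.95 to 2.47 (edgeR adjusted p = 0.0299), and 1.11 without replicate 1 (adjusted p = 0.0460). Il17rc, the chain that completes the receptor for interleukin-17A, was 33.0, 28.5 and 35.1 CPM in WTSH, 33.4, 32.0 and 56.6 CPM in WTTR, 47.7, 48.3 and 34.5 CPM in lacZSH and 44.3, 45.3 and 39.8 CPM in lacZTR. It spanned 1.99-fold over the 12 libraries, the narrowest span of the 9 genes. Its log2 fold change was 0.34 with an interval from −0.15 to 0.82 (edgeR adjusted p = 0.317). The count ratio of Il17ra to Il17rc was 0.372 to 0.786 in the 9 libraries outside WTTR, and 3.65, 1.84 and 0.701 in WTTR.

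Csf1r, the receptor of macrophages, had the highest level per kilobase of exon of the 9 genes in every library but replicate 1 of WTTR. It was 415, 267 and 395 CPM in WTSH, 640.3, 495 and 495 CPM in WTTR, 301.5, 186.5 and 288 CPM in lacZSH and 196, 307 and 423 CPM in lacZTR. The 3 WTTR libraries lay above those of WTSH, lacZSH and lacZTR. The log2 fold change was 0.60 with an interval from −0.05 to 1.24 (edgeR adjusted p = 0.189). Csf1r, at chr18:61100598-61132149, overlaps Hmgxb3, which is read from the opposite strand. Csf3r had 1.49 counts for each count of Csf1r in replicate 1 of WTTR, 0.575 in replicate 2 and 0.104 in replicate 3, whereas in WTSH the ratio was between 0.0379 and 0.0509.

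Per kilobase of exon in GENCODE vM21, the order of mean levels in WTSH was Csf1r at 62.2 CPM per kb, Il17rc at 12.1, Csf1 at 10.3, Csf2rb at 5.17, Csf3r at 4.57 and Il17ra at 2.60, with Csf2 and Il17a under 0.2 and Csf3 at 0. Il17rc and Csf1 overlapped between libraries, and so did Csf2rb and Csf3r. In WTTR the mean of Csf3r was 119 ± 130 CPM per kb (SD, n = 3) and that of Csf1r 94.1 ± 14.6 CPM per kb (SD, n = 3), and the spread of the first covers the second. In replicate 1 of WTTR Csf3r reached 264 and Csf1r 111 CPM per kb, and in replicate 3 they reached 14.3 and 85.6.

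Across the groups, Il17ra, Csf1, Csf2rb and Csf3r shared 1 order of means, from WTTR through lacZTR and WTSH to lacZSH. The libraries of WTTR and lacZTR did not overlap for Il17ra, Csf1 and Csf2rb, and overlapped for Csf3r. Those of lacZTR and WTSH overlapped for Il17ra, Csf1 and Csf2rb, and did not for Csf3r. Those of WTSH and lacZSH overlapped for all 4 genes. Csf1r ran from WTTR through WTSH and lacZTR to lacZSH, and Il17rc from lacZSH through lacZTR and WTTR to WTSH, and among these neighbours only WTTR and WTSH did not overlap, for Csf1r.

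In Tem1lacZ/lacZ scars 0 of the 8 tested genes and 0 of all 18853 genes passed edgeR's test for traction. Of all tested genes, 8.12% had an unadjusted p under 0.05, 5.66% as higher and 2.46% as lower, and of the 8 genes 1 did, Csf3r. In the fit without replicate 1 of WTTR, a library that enters this comparison only through the shared model, 5 of the 8 did (Il17ra, Csf1, Csf2rb, Csf3 and Csf3r, or 4 of 7 leaving Csf3 aside), as did 2109 of 19388 genes, and with only the 6 libraries compared 3 of 6 did (Il17ra, Csf2rb and Csf3r), as did 1623 of 17836 genes, with 0 called in both fits. Leaving out replicate 1 of lacZTR, 73 of all genes were called and 0 of the 8 were. In that fit 2 of the 8, Csf1 and Csf3r, had an unadjusted p under 0.05 in edgeR, as did 3721 of 19403 genes. Their log2 fold changes were 0.84 and 1.91. In replicate 1 of lacZTR 7 keratinocyte markers summed to 54189 CPM, where the other 11 libraries held 11454 to 28219 CPM. The part of keratinocytes in the result was not tested. With all 12 libraries the mean of Csf3r was 12.6 ± 3.74 CPM in lacZSH (SD, n = 3) and 44.0 ± 12.8 CPM in lacZTR (SD, n = 3), a log2 fold change of 1.80 with an interval from 0.18 to 3.42 (edgeR unadjusted p = 0.0325, adjusted p = 0.598). Libraries did not overlap for Il17ra, Csf3 and Csf3r, which were higher with traction, nor for Csf2, which was lower (3 of 7 genes leaving Csf3 aside), where 12.9% of all tested genes did not overlap, 6.77% as higher and 6.16% as lower. The log2 fold change was 0.55 for Il17ra, with an interval from −0.19 to 1.30, and 0.55 for Csf1, with an interval from −0.22 to 1.32. Csf3 had 0, 4 and 2 counts in lacZSH and 4, 43 and 18 in lacZTR, and Csf2 had 6, 4 and 8 counts in lacZSH and 2, 0 and 4 in lacZTR. As Csf3 averaged under the floor in lacZSH and Csf2 in lacZTR, no fold is given for them. The nearest Csf2 libraries of both groups had 4 counts each, so that only library size set them apart. For Il17ra the nearest libraries were at 22.4 CPM in lacZSH and 22.6 CPM in lacZTR. For Csf2rb the log2 fold change was 0.79 (interval −0.93 to 2.51), for Csf1r 0.25 (interval −0.39 to 0.90) and for Il17rc −0.01 (interval −0.49 to 0.47). DESeq2's Wald test called 0 of the 6 genes to which it gave an adjusted p (not Csf2 and Csf3) and 28 of all genes, and limma-voom called 0 of the 8 and 0 of all genes.

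The next comparison was of both genotypes under load, and it uses the same WTTR libraries as the first. With traction 0 of the 8 genes passed edgeR's test between Tem1lacZ/lacZ and Tem1WT/WT scars, and 0.106% of all tested genes did, 0.0955% as lower. At an unadjusted p under 0.05, 7 of the 8 were lower in Tem1lacZ/lacZ, all but Il17rc (6 of 7 leaving Csf3 aside, which passed the filter through its traction libraries), where 26.1% of all tested genes differed and 15.1% were lower. Libraries did not overlap for Il17ra, Csf1, Csf1r, Csf2rb and Csf3, all lower (4 of 7 leaving Csf3 aside), where 26.6% of all tested genes did not overlap and 13.7% were lower. The median log2 difference was −2.12 for the 8 genes (−1.36 leaving Csf3 aside) and 0.01 for all genes tested, and −0.75 and 0.07 without replicate 1 of WTTR.

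For Il17ra the log2 difference was −1.36 with an interval from −2.12 to −0.61, from 73.4 ± 43.0 CPM in WTTR (SD, n = 3) to 28.5 ± 6.57 CPM in lacZTR (SD, n = 3). For Csf1 it was −1.29 (interval −2.07 to −0.51), for Csf1r −0.82 (interval −1.46 to −0.17) and for Csf2rb −2.87 (interval −4.70 to −1.04). The adjusted p from edgeR was between 0.0891 for Csf3r and 0.189 for Csf2 among these 7 genes, which none of them passed. For Csf3r the log2 difference was −3.29 (interval −5.00 to −1.58) and for Csf3 −4.65 (interval −7.83 to −1.47). Replicate 3 of WTTR, at 51.6 CPM of Csf3r, lay within the lacZTR libraries of 33.9 to 58.3 CPM. For Il17rc the log2 difference was 0.09 with an interval from −0.40 to 0.57.

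Without replicate 1 of WTTR these differences were smaller: −0.76 for Il17ra, −0.75 for Csf1, −0.64 for Csf1r, −0.74 for Csf2rb, −1.52 for Csf3 and −1.91 for Csf3r, with 0 called by edgeR and 3 of the 8 at an unadjusted p under 0.05, as were 3951 of 19388 genes. Without replicate 2 of WTTR 4 were called, Il17ra, Csf1, Csf2rb and Csf3r, and over all genes 1421 of 19400. Without replicate 3 of WTTR 1 was called, Csf3r, and over all genes 25 of 19430. DESeq2's Wald test on all 12 libraries called the same 4 as the fit without replicate 2, with adjusted p of 0.00649 for Il17ra, 0.0128 for Csf1, 0.00411 for Csf2rb and 0.000284 for Csf3r, and it called 2334 of all genes and gave no adjusted p for Csf2 and Csf3. limma-voom called 0 of the 8 and 25 of all genes.

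Between unloaded scars of both genotypes 0 of the 8 genes were called by edgeR, and 0.0106% of all tested genes were, 0.0053% as higher and 0.0053% as lower. Of the 8, 0 had an unadjusted p under 0.05 and 0 had groups without overlap, where 11.7% (5.03% as higher and 6.62% as lower) and 26.8% of all tested genes did. limma-voom called 0 of the 8 as well and 0 of all 18853 genes, and DESeq2 called 0 of the 6 with an adjusted p and 43 of all genes. The intervals leave room for differences: from −0.95 to 0.53 on the log2 scale for Il17ra, from −1.18 to 0.36 for Csf1, from −1.12 to 0.17 for Csf1r and from −1.96 to 1.19 for Csf3r. Il17rc was 32.2 ± 3.36 CPM in WTSH (SD, n = 3) and 43.5 ± 7.81 CPM in lacZSH (SD, n = 3), a log2 difference of 0.43 with an interval from −0.05 to 0.92. Csf3 averaged under the floor in both groups, so that no fold is given.

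Whether the effect of traction differed by genotype was tested by the interaction. None of the 8 genes passed, and 0 of all 18853 genes did. All 8 fitted interaction terms were negative, and 3 had an unadjusted p under 0.05 in edgeR (2 of 7 leaving Csf3 aside), where 8.91% of all tested genes did and 4.46% were negative. These were Csf3r (−2.90 on the log2 scale, interval −5.17 to −0.64, edgeR unadjusted p = 0.0167), Il17ra (−1.15, interval −2.20 to −0.10, unadjusted p = 0.0346) and Csf3 (unadjusted p = 0.0351), each with an adjusted p of 0.548. The term of Csf3 is set by sham groups at 0 or under the floor, and is no measure of a difference. For Csf1 the term was −0.87 (interval −1.96 to 0.22), for Csf2rb −2.42 (interval −4.87 to 0.03) and for Il17rc −0.35 (interval −1.03 to 0.34). Without replicate 1 of WTTR the term was −1.51 for Csf3r and −0.53 for Il17ra, with adjusted p of 0.631 and 0.685 in edgeR. Without that replicate, only Csf3 had an unadjusted p under 0.05 in edgeR, where 1548 of 19388 genes did. Without replicate 2 or 3 of WTTR, 5 of the 8 did (4 of 7 leaving Csf3 aside), where 2778 of 19400 and 1835 of 19430 genes did. Without 1 of the other libraries, 1 to 3 of the 8 did (1 or 2 of 7 leaving Csf3 aside). Over all genes, from 1115 of 19308 to 1955 of 19436 did in those fits. Taking out 1 library at a time, the term ranged from −1.13 to −0.32 for Csf1 and from −2.88 to −0.27 for Csf2rb. limma-voom called 0 of the 8 and 0 of all 18853 genes, and DESeq2 called 0 of the 7 with an adjusted p and 69 of all genes. In limma-voom 0 of the 8 had an unadjusted p under 0.05, where 1635 genes did. The call of a gene for traction in Tem1WT/WT but not in Tem1lacZ/lacZ scars therefore stands without a passed test of the difference.

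**Figure D3:**
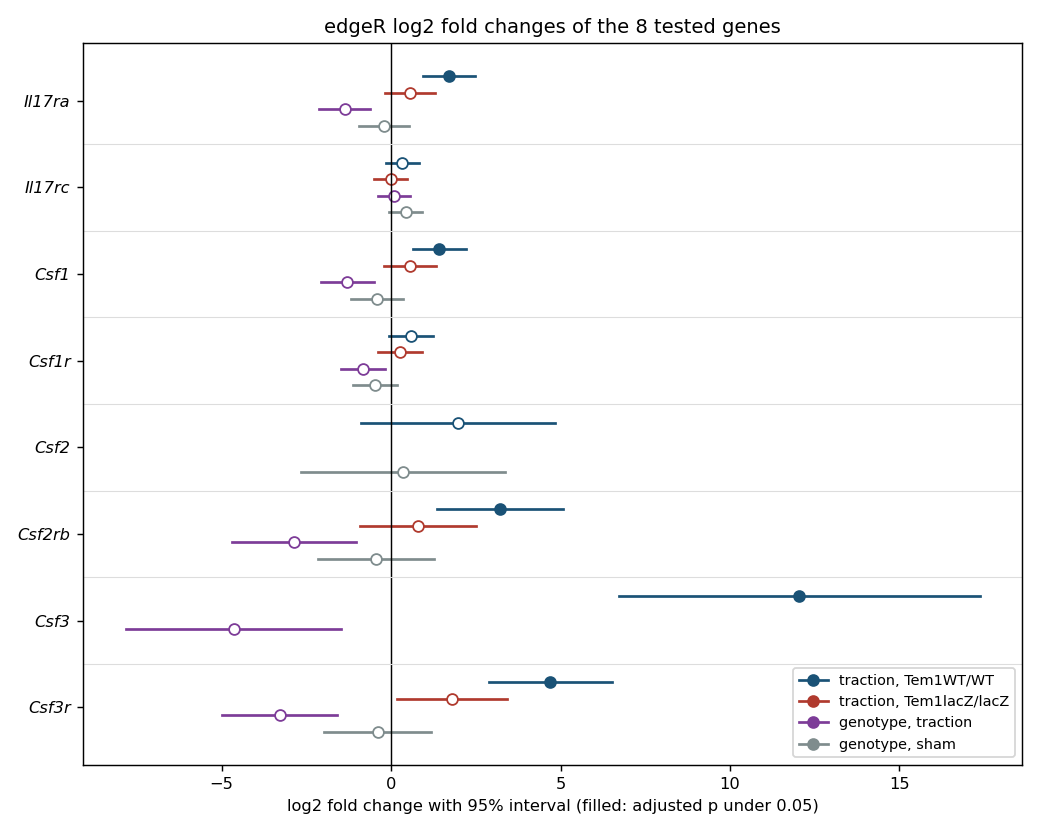
Horizontal axis, edgeR log2 fold change with its 95% interval for the 8 tested genes in up to 4 comparisons (traction in each genotype, and Tem1lacZ/lacZ against Tem1WT/WT with each treatment), filled points marking an adjusted p under 0.05. The filled points are the 5 genes called for traction in Tem1WT/WT, from Csf1 at 1.42 to Csf3, whose fitted value has a group at 0 below it. Folds of Csf2 and Csf3 over a group that averaged under the floor are not drawn.

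The other genes of the pathways were counted by list. Over all genes tested for traction in Tem1WT/WT scars, 5.61% were called as higher and 3.54% as lower. Of 8 other IL-17 family ligands and receptors, 5 were tested, and in Tem1WT/WT scars 1 was lower with traction, Il17rb (−1.25, edgeR adjusted p = 0.0320, and 0.0503 without replicate 1 of WTTR), the receptor for interleukin-25. Of 15 genes that carry the IL-17 receptor signal, 2 were higher, the transcription factors Cebpb (2.09, adjusted p = 0.0384) and Cebpd (1.30, adjusted p = 0.0329), and 0 were lower. The adaptor of the receptor, Traf3ip2, had a log2 fold change of 0.23 (adjusted p = 0.446). Of 13 genes of IL-17 producing lymphocytes and the cytokines upstream of them, 11 were tested. Il1r1, an interleukin-1 receptor, was higher (1.47) and the orphan receptor Rora was lower (−0.79). Without replicate 1 of WTTR, 0 of these 11 were called, and Cebpb was the only one called among the 15 signalling genes. In that fit 360 of 19388 genes were called.

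Of 20 genes known to respond to interleukin-17, 19 were listed and tested, of which 9 were higher and 1 was lower with traction in Tem1WT/WT scars, where 5.61% and 3.54% of all genes tested were. The median log2 fold change of the list was 4.29. The 4 largest of the called were the neutrophil chemokines Cxcl3 (7.84) and Cxcl5 (7.15), the calcium-binding alarmin S100a9 (5.63) and the collagenase Mmp13 (5.19). Without replicate 1 of WTTR they were at 3.71, 6.10, 2.21 and 2.83. Ccl20, a chemokine for IL-17 producing T lymphocytes, was the one that was lower (−2.10, edgeR adjusted p = 0.0352). Cxcl5 was 0.478, 1.23 and 1.93 CPM in WTSH and 352, 114 and 55.9 CPM in WTTR, and it was 23.9, 23.6 and 2.28 CPM in lacZTR. Without replicate 1 of WTTR the median was 1.10, and Cxcl1, Cxcl5 and Mmp13 were called, where 360 of 19388 genes were. Cxcl1 was also lower in Tem1lacZ/lacZ than in Tem1WT/WT scars with traction (−4.30, edgeR adjusted p = 0.0335, and 0.0510 without replicate 1). It was the only gene called in that comparison over all 6 pathway lists. S100a8 and S100a9 are in the neutrophil marker list as well.

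Of 7 other ligands and receptors of the colony-stimulating factors and related cytokines, 6 were tested, of which 2 were higher with traction in Tem1WT/WT scars, Csf2rb2 and Il3ra (1.08, edgeR adjusted p = 0.0386), the interleukin-3 receptor chain. Over all genes tested, 5.61% were called as higher and 3.54% as lower. Csf2ra, the chain that binds CSF2 itself, was at 1.36 (adjusted p = 0.104), and Il34, the second ligand of CSF1R, at −0.24 (adjusted p = 0.643). Of 20 genes of colony-stimulating factor signalling and myeloid transcription, 7 were higher and 0 lower, where 5.61% and 3.54% of all genes tested were. Their median log2 fold change was 0.90, and 0.50 without replicate 1 of WTTR, where all genes tested had −0.01 and −0.05. The 4 largest of the called were the feedback inhibitors Socs3 (3.66) and Socs1 (2.39) and the kinases Lyn (1.45) and Fes (1.30). Without replicate 1 of WTTR they were at 1.66, 0.94, 0.82 and 1.03. Socs3 was 26.9, 27.2 and 44.4 CPM in WTSH and 1031, 131 and 79.3 CPM in WTTR. Without replicate 1 of WTTR, 0 of these 26 genes were called, where 360 of 19388 genes were. With traction in Tem1lacZ/lacZ scars, between genotypes in sham and for the interaction, 0 genes of the 6 pathway lists were called.

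Markers of the cells that carry these receptors, and of fibroblasts, moved with some of the results. Over 18 neutrophil markers the summed level was 81.8 to 134 CPM in WTSH, 8519, 608 and 505 CPM in WTTR, 207 to 218 CPM in lacZSH and 286 to 552 CPM in lacZTR, and 16 of the 18 were highest in replicate 1 of WTTR. Of the 15 tested, 9 were higher with traction in Tem1WT/WT scars, where 5.61% of all genes tested were. Without that replicate 2 were, Mmp9 and Trem1, where 360 of 19388 genes were called. Ly6g, which defines mouse neutrophils, was at 0 in 7 libraries, at 3.76 CPM in replicate 1 of WTTR and at most 0.177 CPM elsewhere. The level of Csf3r stood beside these sums: it was highest in the library with the highest sum, 285 CPM in replicate 2 of WTTR with a sum of 608 CPM, and 39.7 CPM in replicate 1 of lacZTR with a sum of 552 CPM. The part of these cells in the differences of Csf3r, Csf3 and Csf2rb was not tested.

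Over 15 monocyte and macrophage markers the summed level was 2659 to 4455 CPM in WTSH, 4136 to 5859 CPM in WTTR, 2170 to 4339 CPM in lacZSH and 2486 to 4706 CPM in lacZTR, and none was at 0. Of the 15, 1 was called for traction in Tem1WT/WT scars, Cd14 (4.04), the co-receptor for bacterial lipopolysaccharide, and without replicate 1 of WTTR 0 were (Cd14 1.69, edgeR adjusted p = 0.0523). For this and the next lists, 5.61% of all genes tested were called as higher and 3.54% as lower in that comparison. Without replicate 1 of WTTR, 360 of 19388 genes were called. Over 12 T lymphocyte markers the sum was 643 CPM in replicate 1 of WTTR, the library with Il17a and Il17f, and 256 to 412 CPM in the other 11, and 10 of the 12 were highest there. With traction in Tem1WT/WT scars the median log2 fold change of these 12 was 0.25 with 0 called, and −1.09 without that replicate, with 1 called, Cd3g (−1.98, edgeR adjusted p = 0.0448). Over 8 scar fibroblast markers the sum was 27974 to 47557 CPM in WTSH, 46397 to 121410 CPM in WTTR, 23144 to 39839 CPM in lacZSH and 29403 to 57874 CPM in lacZTR. Of these 8, 2 were higher with traction in Tem1WT/WT scars, Pdgfra (1.45) and Fbln1 (0.90), and 0 without replicate 1 of WTTR, and 0 were called between genotypes with traction. Skeletal muscle markers summed to 1186 to 11942 CPM in WTSH, 304 to 1890.5 CPM in WTTR, 967 to 3054 CPM in lacZSH and 1353 to 2298 CPM in lacZTR. Of these 6, 0 were called for traction in Tem1WT/WT scars, and 2 as lower without replicate 1 of WTTR. The 5 adipocyte markers had a median log2 fold change with traction of −1.48 in Tem1WT/WT (−3.57 without that replicate) and −1.16 in Tem1lacZ/lacZ scars, with 0 called. The part of these cells in the results was not tested.

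**Figure D4:**
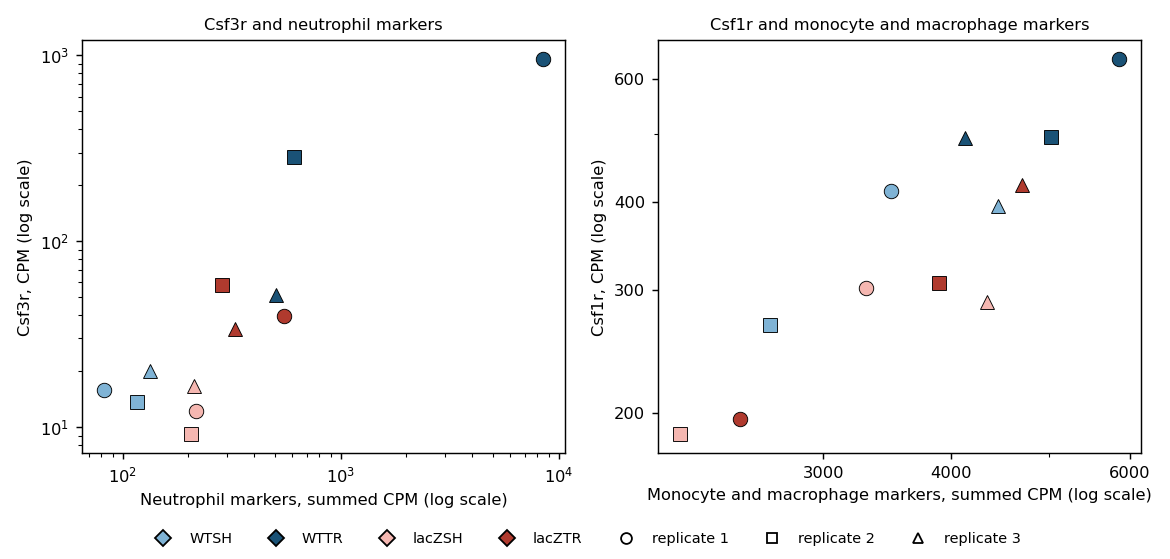
Left, Csf3r against the summed CPM of 18 neutrophil markers, and right, Csf1r against that of 15 monocyte and macrophage markers, in 12 libraries on log axes, with colour for the group and shape for the replicate. Replicate 1 of WTTR lies at 8519 and 954 CPM on the left and at 5859 and 640.3 CPM on the right, the upper end of both.

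The genes whose pattern over the 12 libraries was most like that of a member were found by the root mean square difference of standardized log2 CPM among 13646 genes, where smaller is more alike and the median gene stood at 1.34 to 1.36. For Csf2rb the nearest was Tnfaip2 (0.0669), followed by Fth1 and Ccdc88b. For Csf3r it was Sirpb1b (0.126), with Fam49b also near, for Csf1 Aff1 (0.147), followed by Tbkbp1 and Cmip, and for Il17ra Armc7 (0.172), followed by Sbno2 and Dhx40. For Csf3 it was Tor4a (0.186), followed by A4galt and Ifitm2, and for Csf1r Fam78a (0.226), followed by Agtrap and Dennd4b. Csf2 and Il17rc had no neighbour as near, with Morc3 (0.398), Snap29 and Adam17 for the former and Mat2b (0.459) and LOC108167548 for the latter. Between members, Csf3r and Il17ra were the closest (0.257), and Il17rc lay 1.30 or more from each of the others. The points are single libraries, and replicate 1 of WTTR is the highest of them for 8 of the 9 members.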

How the data were processed

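RNA-seq of 12 mouse scars, 3 per group, was analysed. The authors extracted RNA with RNeasy kits, prepared stranded mRNA libraries (TruSeq), trimmed reads with fastp (0.20.0), aligned them to GRCm38 with HISAT2 (2.1.0) and counted them with featureCounts (2.0.0), as named in their methods and processing notes. They deposited whole-number counts per gene, not normalized. The annotation, strand setting and handling of multimapping reads are not given in the sources used here.

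Genes passing filterByExpr by group (minimum count 10; 18853 of 35976) were scaled by TMM and fitted with edgeR (4.0.16) robust quasi-likelihood in 1 model of 4 groups with 8 residual degrees of freedom, in R 4.3.3. Tests were two-sided with Benjamini-Hochberg adjustment over all tested genes. SEs and 95% intervals follow from the F statistic. edgeR's common biological coefficient of variation was 34.2%. The alternatives used DESeq2 (1.42.0), limma (3.58.1), other scaling, other filters, a replicate block, the 6 libraries compared and each library left out. List counts without WTTR replicate 1 were added after the data were examined. Figures used matplotlib (3.10.9) in Python 3.11.15. Scripts were tested on simulated data. log2 CPM used a prior count of 2.

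The members and gene lists were chosen with earlier results of these data known. All 9 members are named, with the 3 most alike genes of at least log2 CPM 1 for each of the 8 tested (some are not reported here), and up to 4 called genes per list by size. Coordinates come from GENCODE vM21 and RefSeq. The sources give 3 scars per group without saying that each came from a separate mouse, so p-values measure the spread between these samples, and no 2 libraries of a group were copies.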

Additional observations from a re-analysis of the deposited data

How the results depend on the processing

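For traction in Tem1WT/WT scars the 5 members called became 2 with all genes that had a count (Csf3r and Il17ra, with 28591 genes adjusted for), 3 with limma-voom (Csf2rb and Csf3 lost), 3 with the replicate block (Csf1 and Csf2rb lost) and 0 with only the 6 libraries compared, where 0 of all genes were called. DESeq2's Wald test called 4 of 7 (no adjusted p for Csf3), and both other scalings called 5. Over all genes, 1725 were called in the main fit, 1011 with all genes that had a count, 1429 with limma-voom and 1467 with the replicate block. DESeq2's Wald test called 4047, DESeq2 size factors in edgeR 1806 and upper quartile scaling 1673. Leaving out 1 library gave 0 to 5, and 0 to 2861 over all genes. Csf1 was called in 7 of 19 alternatives and Csf2rb in 6 of 19. For Tem1lacZ/lacZ against Tem1WT/WT with traction the 0 became 4 with DESeq2 (2334 over all genes), and leaving out 1 library gave 0 to 4 (3 to 1421 over all genes). The cause was not tested. The other 3 comparisons kept 0 under all alternatives run.

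Signs changed only in differences that were not called. Il17rc for traction in Tem1lacZ/lacZ scars went from −0.01 to 0.020 with all genes that had a count and to 0.0049 with limma-voom, and to −0.13 to 0.10 with 1 library left out. With 1 library left out, Csf1r there ranged from −0.044 to 0.54, Il17rc between genotypes with traction from −0.064 to 0.41 and Csf2 between genotypes in sham from −0.16 to 1.95. Upper quartile scaling moved the median of all genes to −0.12 for traction in Tem1WT/WT and to 0.14 between genotypes with traction. The sample titles give only a group and a replicate number, and no source ties same-numbered libraries of different groups together. Of 18 such pairs 8 correlated above 0.1 (−0.324 to 0.250), whereas few pairs with different numbers did. The correlations are therefore no ground for setting the numbers aside. The main fit did not pair the libraries by number, and the source of the correlations was not tested. The replicate block moved the count of calls for traction in Tem1WT/WT from 1725 to 1467 over all genes. The fit on the compared groups alone could not be made for the interaction. At this depth Csf3 in sham averaged under the floor of 3 counts, and Csf2 and Il17a were at or under it in some libraries of each traction group.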
